A study of Mus musculus with 8 samples.

Results

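The 10 genes described here encode transcription factors that start, carry or hold back the making of fat cells. They are Pparg, Cebpa, Cebpb, Cebpd, Klf4, Klf5, Klf15, Zfp423, Ebf1 and Gata2, out of 19310 mouse genes that had an array row with exactly 1 gene symbol. Each of the 10 had 1 such row, so no second row was left as a check. RNA came from the epididymal fat pad, a white visceral depot, of male C57BL/6 mice aged 12 to 15 weeks, kept on standard food with 12 h of light and 12 h of darkness a day. The 4 samples labelled Rev-erb alpha KO lack, by their label, the nuclear receptor encoded by Nr1d1, and the other 4 are labelled wild type (WT). All were taken 10 h after lights on (Zeitgeber time 10), when, per the labels, WT mice have most of the receptor protein. The labels do not give the allele, nor whether each sample came from a separate mouse, so a p-value covers only how these samples vary, which may be technical.

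Adipogenesis runs through these factors in an order worked out largely in cultured mouse preadipocytes. Zfp423 and Ebf1 mark or commit precursor cells, and Klf4, Cebpb, Cebpd and Klf5 act early in differentiation. They switch on Pparg and Cebpa, which then sustain each other and drive the genes of the mature fat cell, with Klf15 acting late. Gata2 is a brake that keeps preadipocytes from differentiating. Rev-erb alpha represses genes that carry its binding element, and its own gene is induced as cultured preadipocytes become fat cells.

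Nr1d1 itself, the gene targeted in the knockout (row 10390691), read 9.56, 9.28, 8.90 and 8.80 log2 in the samples labelled KO, against 9.47, 9.11, 9.18 and 9.83 log2 in WT. The groups overlapped (log2 difference -0.26, limma adjusted p = 0.479). Where on the transcript this row lies relative to the deletion is not given in the sources used here, so the row cannot check the labels and the samples are called KO-labelled. Arntl, a clock gene that Rev-erb alpha is known to repress, read 6.94, 6.65, 6.95 and 6.94 log2 in KO-labelled fat, against 5.12, 5.19, 4.96 and 4.80 log2 in WT fat. Over all 20748 rows tested, 1536 were called at a limma adjusted p under 0.05, a share of 7.40%, with 3.81% higher and 3.59% lower in KO-labelled tissue. Their number was 913 without KO-labelled array 4, 972 without WT array 3 and 1004 without WT array 4. On the first principal component (43.2% of the variance) KO-labelled arrays lay at 9.34 to 19 and WT arrays at -15 to -12.2. On the second (14.7% of the variance) KO-labelled arrays 1 and 2 lay at 12.8 and 10.7 and KO-labelled arrays 3 and 4 at -11.4 and -5.91. WT array 1 lay at -9.93 there, and WT arrays 2, 3 and 4 at 1.71, -0.428 and 2.42. The labels name no batch, and the 4 arrays per group limit the precision of every value.

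The promoter sequences of these genes are shown because Rev-erb alpha acts on DNA through the RORE, an A/T-rich stretch followed by AGGTCA or a close variant. The pattern searched was A or T, then A, then A or T, any base and T, followed by AGGTCA or GGGTCA. RefSeq windows (GRCm38.p6) from 250 bases before to 50 bases after a start were found for 8 of the 10 genes, 13 windows in all, and both strands were searched. Cebpd and Klf5 had no window and were not searched. A RORE match stood in one window of Arntl, given first, and in 0.384% of all 32851 windows, and in 0 of the 13 windows of the adipogenic factors. The hexamer AGGTCA, which overlaps the RORE pattern where that ends in AGGTCA, was in 16.3% of all windows and in 3 of the 13. It lay once in each of 2 of the 3 Pparg windows and in 1 of the 2 Zfp423 windows. Capitals mark the RORE in Arntl and the hexamer in the others.
Arntl, chr7:113207528-113207556, plus strand: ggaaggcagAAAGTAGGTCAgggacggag
Pparg, chr6:115361104-115361133, plus strand: agccgccgcctcAGGTCAgagtcgccccgg
Pparg, chr6:115362328-115362357, plus strand: agggacgcgaggAGGTCAagaaggggcctg
Zfp423, chr8:87804456-87804485, minus strand: atcccgtggctgAGGTCAcccgtgggccag

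The E-box CACGTG, the element bound by the clock activators including the Arntl product, was in 7.15% of all windows and in 2 of the 13, those of Klf4 and Klf15. Klf15 held 3 copies, which begin at positions -228, -172 and -3 counted from the start and stand in capitals in its sequence. None of the 13 windows held the D-box TTATGTAA, the C/EBP palindrome TTGCGCAA, or direct repeats of the hexamer spaced by 1 or 2 bases (AGGTCANAGGTCA and AGGTCANNAGGTCA). Those 4 motifs were in 0.938%, 0.183%, 0.0396% and 0.00913% of all windows. The sequence before the start of Cebpa, the factor gene that fell, is given whole and matched none of the motifs. No match says only that these letters are not in these windows.
Klf15, chr6:90462326-90462578, plus strand: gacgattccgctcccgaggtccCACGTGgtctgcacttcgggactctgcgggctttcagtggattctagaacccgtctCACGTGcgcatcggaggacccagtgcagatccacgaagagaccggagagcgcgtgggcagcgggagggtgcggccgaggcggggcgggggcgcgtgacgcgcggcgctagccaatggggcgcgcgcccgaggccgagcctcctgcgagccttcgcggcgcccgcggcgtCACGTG
Cebpa, chr7:35119043-35119292, plus strand: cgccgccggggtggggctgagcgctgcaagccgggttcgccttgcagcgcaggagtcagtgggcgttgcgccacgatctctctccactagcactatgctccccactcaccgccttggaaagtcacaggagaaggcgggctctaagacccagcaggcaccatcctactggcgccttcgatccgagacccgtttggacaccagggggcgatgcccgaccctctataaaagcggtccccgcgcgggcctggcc

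Of the 10 factors, Zfp423 rose and Cebpa fell in KO-labelled fat, and 8 did not pass the test. That is 2 of 10 called, against 7.40% of all rows. In 4 of the 10 the groups did not overlap, against 15.3% of all rows. Zfp423 was the 1 higher in KO-labelled fat (7.18% of all rows), and Cebpa, Pparg and Klf15 were the 3 lower (8.16% of all rows). The log2 differences were above 0 for 5 factors and below 0 for 5, and their median was -0.0023, against -0.006 over all tested rows. The median size of the difference, sign aside, was 0.14 log2, against 0.0789 over all tested rows.

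**Figure D1:**
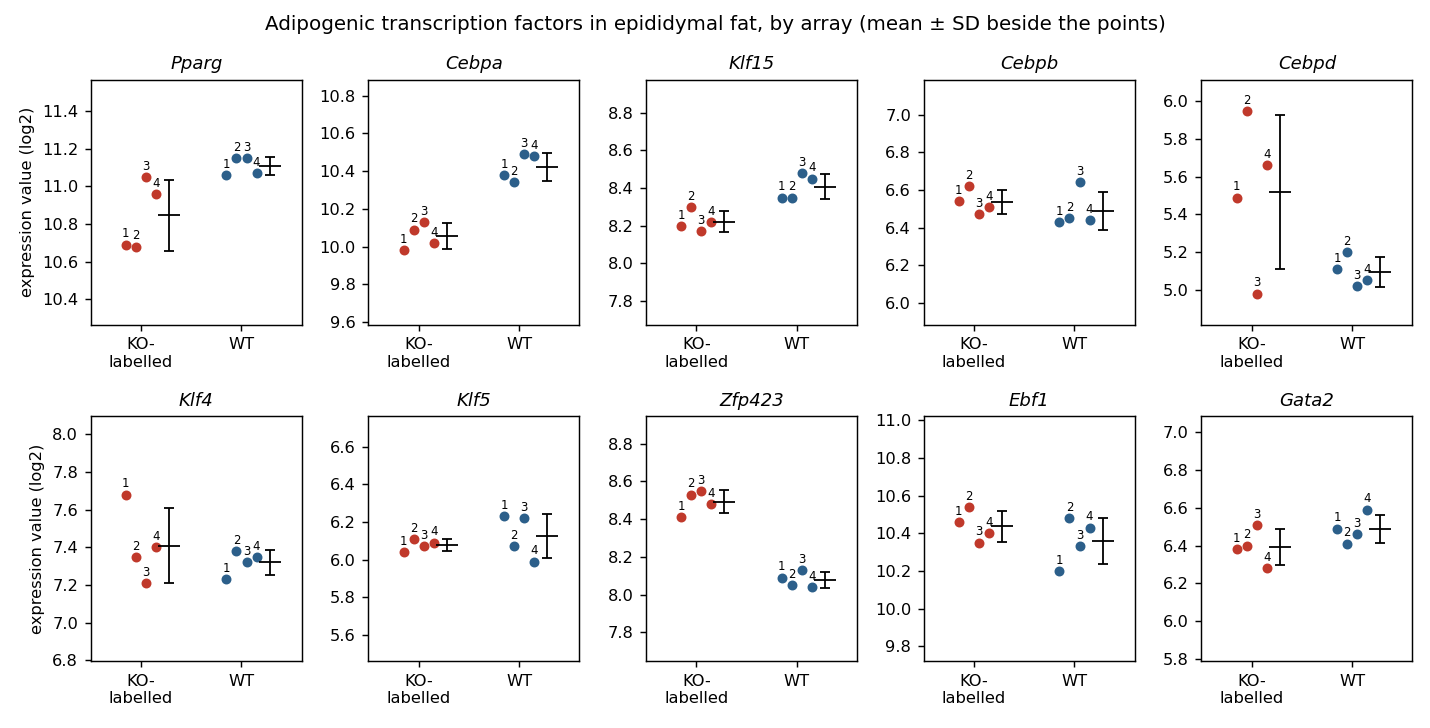
Expression value (log2) of each of the 10 factors in 4 KO-labelled arrays (red, left) and 4 WT arrays (blue, right), numbered by replicate, with the mean and SD beside the points and an equal axis span in every panel. The 2 groups stand apart for Zfp423 and Cebpa, nearly touch for Pparg and Klf15, and overlap for the other factors, with Cebpd spread widely over the KO-labelled arrays.

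Zfp423 is a zinc finger protein that commits precursor cells to the fat lineage through bone morphogenetic protein signalling, and in mature white fat cells it restrains thermogenic genes. It read 8.41, 8.53, 8.55 and 8.48 log2 in KO-labelled fat, against 8.09, 8.05, 8.13 and 8.04 log2 in WT fat. Every KO-labelled array lay above every WT array, with a gap of 0.279 log2 between the groups. The mean was 8.49 ± 0.06 in KO-labelled fat and 8.08 ± 0.04 in WT fat (SD, n = 4 each), a 1.34-fold difference (log2 difference 0.42, SE 0.0528, 95% interval 0.30 to 0.53, limma adjusted p = 0.00125). With any 1 array left out the difference was 0.40 to 0.44 log2 and the adjusted p 0.00213 to 0.00647.

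Ebf1, early B cell factor 1, promotes adipogenesis upstream of Pparg and Cebpa. Its row read 10.46, 10.54, 10.35 and 10.40 log2 in KO-labelled fat, against 10.20, 10.48, 10.33 and 10.43 log2 in WT fat. The groups overlapped, and the log2 difference was 0.08 with a 95% interval of -0.08 to 0.24 (adjusted p = 0.583). Its relative Ebf2, a factor of brown and beige fat cells and their precursors, fell in the same tissue. Ebf2 read 7.51, 7.49, 7.29 and 7.31 log2 in KO-labelled fat, against 8.14, 8.20, 8.10 and 8.31 log2 in WT fat, a log2 difference of -0.79 (SE 0.0709, limma adjusted p = 2.03e-04). The remaining relatives Ebf3 and Ebf4 had log2 differences of 0.11 and 0.02 and did not pass. Whether the differences of Ebf1 and Ebf2 differ from each other was not tested.

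The early activators did not pass the test in any of 4 cases. Cebpb, a leucine zipper protein of the first wave, averaged 6.54 ± 0.06 log2 in KO-labelled fat and 6.49 ± 0.10 in WT fat (SD, n = 4 each), with a 95% interval of the difference from -0.09 to 0.19. Klf5, which C/EBP beta and delta induce and which then activates Pparg, averaged 6.08 ± 0.03 in KO-labelled fat and 6.13 ± 0.12 in WT fat (interval -0.20 to 0.09). For both genes the KO-labelled values lay inside the range of the WT values.

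Cebpd, the partner of Cebpb in the first wave, varied most among the KO-labelled arrays. It read 5.49, 5.95, 4.98 and 5.66 log2 there, against 5.11, 5.20, 5.02 and 5.05 log2 in WT fat. Arrays 1, 2 and 4 of the KO-labelled group lay above all WT arrays and array 3 lay below them all. The difference was 0.42 log2 (SE 0.163, 95% interval 0.06 to 0.78, limma adjusted p = 0.156), as large as that of Zfp423 but with a SD of 0.41 in KO-labelled fat and 0.08 in WT fat. Without KO-labelled array 3 it was 0.60 log2 and passed (adjusted p = 0.0105). Cebpd is a dim row, with means of 5.52 log2 in KO-labelled fat and 5.10 log2 in WT fat. Both lay below the array medians of 5.9 to 5.95 log2.

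Klf4, an early activator of Cebpb that blood vessel lining cells and macrophages also express, read 7.68, 7.35, 7.21 and 7.40 log2 in KO-labelled fat, against 7.23, 7.38, 7.32 and 7.35 log2 in WT fat. Array 1 of the KO-labelled group was the highest of the 8 and array 3 the lowest. The log2 difference was 0.09 (95% interval -0.11 to 0.29, adjusted p = 0.636), and it was -0.002 without KO-labelled array 1.

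**Figure D2:**
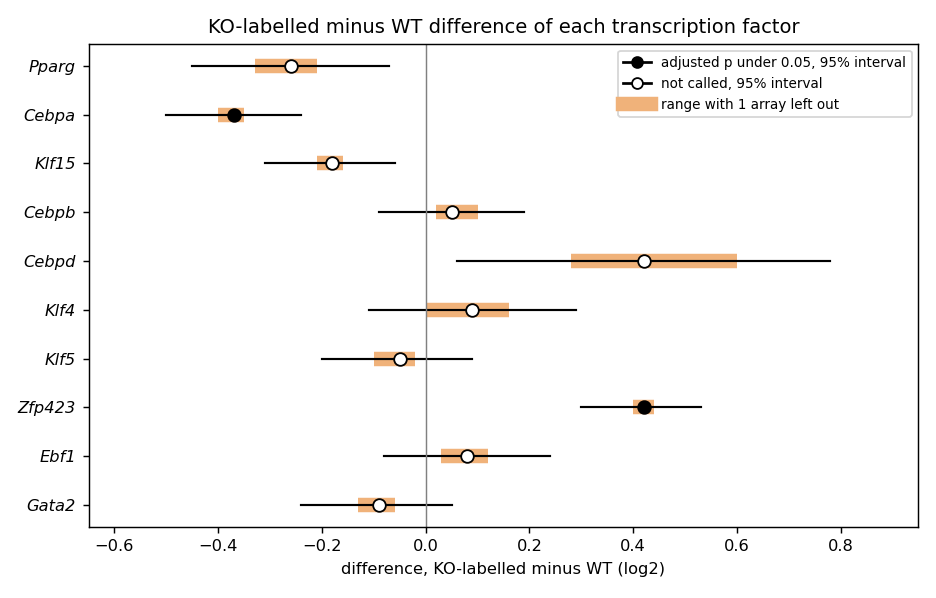
Log2 difference, KO-labelled minus WT, of each factor (circles, filled where the limma adjusted p was under 0.05), with its 95% interval (lines) and the range with 1 array left out (orange). Zfp423 at 0.42 and Cebpa at -0.37 are the 2 filled circles, and the orange range is widest for Cebpd, from 0.28 to 0.60.

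Of the pair that sustains the mature fat cell, Cebpa fell and Pparg did not pass. Whether the differences of Cebpa and Pparg differ from each other was not tested. Cebpa, a leucine zipper factor needed for white fat to form and respond to insulin, read 9.98, 10.09, 10.13 and 10.02 log2 in KO-labelled fat, against 10.38, 10.34, 10.49 and 10.48 log2 in WT fat. All 4 KO-labelled arrays lay below all WT arrays, with a gap of 0.215 log2. The mean was 10.05 ± 0.07 in KO-labelled fat and 10.42 ± 0.07 in WT fat (SD, n = 4 each), so the KO-labelled value was 0.774 times that of WT (log2 difference -0.37, SE 0.0581, 95% interval -0.50 to -0.24, limma adjusted p = 0.00454). The adjusted p was 0.00786 to 0.0182 with any 1 array left out.

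Pparg, the nuclear receptor without which fat cells do not form, read 10.69, 10.68, 11.05 and 10.96 log2 in KO-labelled fat, against 11.06, 11.15, 11.15 and 11.07 log2 in WT fat. KO-labelled arrays 1 and 2 were the lowest of the 8, while array 3 lay 0.012 log2 below the lowest WT array. The log2 difference was -0.26 (SE 0.0857, 95% interval -0.45 to -0.07, limma adjusted p = 0.0962). Without KO-labelled array 3 it was -0.33 and passed (adjusted p = 0.039), and with other arrays left out it did not.

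Klf15, which acts late in adipogenesis and induces the glucose transporter of fat cells, read 8.20, 8.30, 8.17 and 8.22 log2 in KO-labelled fat, against 8.35, 8.35, 8.48 and 8.45 log2 in WT fat. The KO-labelled arrays all lay below the WT arrays, by a gap of 0.053 log2. The difference was -0.18 log2 (SE 0.0551, 95% interval -0.31 to -0.06, limma adjusted p = 0.072). It passed narrowly once the dimmest 33.3% of rows were left out (adjusted p = 0.0492). Pparg, Cebpa, Klf15 and Zfp423 each had an exact two-sided permutation p of 0.0286, the smallest that 4 against 4 arrays can give, with no adjustment over the 10 factors.

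Gata2, the zinc finger brake on Pparg that is also active in mast cells and vessel lining, read 6.38, 6.40, 6.51 and 6.28 log2 in KO-labelled fat, against 6.49, 6.41, 6.46 and 6.59 log2 in WT fat. The groups overlapped, with a log2 difference of -0.09 (95% interval -0.24 to 0.05, adjusted p = 0.44). The GATA relatives measured, Gata1, Gata3, Gata4, Gata5 and Gata6, had log2 differences from -0.16 to 0.16 and none passed.

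Relatives in the other families included falls of Klf10 and Ppara. Among 14 further KLF genes Klf10, a gene induced by transforming growth factor beta, fell (log2 difference -0.58, SE 0.12, limma adjusted p = 0.016, and 0.0546 without KO-labelled array 4), and the other 13 ranged from -0.23 to 0.12. Ppara, the receptor of fatty acid oxidation, fell by 0.39 log2 (SE 0.0638, adjusted p = 0.00563), while Ppard was at 0.11 and did not pass. The C/EBP relatives Cebpe and Cebpg were at 0.07 and -0.03. Of all 27 relatives measured, 0 rose and 3 fell, with a median of -0.03 log2, and 11.1% were called, against 7.40% of all rows.

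Other activators of adipogenesis included 1 that rose and 3 that fell among 24 measured, with a median of -0.08 log2. Among all rows, 3.81% were called higher and 3.59% lower. Besides Ebf2, Srebf1, which drives lipid synthesis genes and Pparg activity, fell. It read 8.26, 8.14, 8.59 and 8.58 log2 in KO-labelled fat, against 8.93, 9.05, 9.22 and 9.04 log2 in WT fat (log2 difference -0.67, SE 0.108, limma adjusted p = 0.00524). Zfp467, a zinc finger factor that steers marrow precursors towards fat, fell by 0.36 log2 (adjusted p = 0.0213). Its adjusted p was 0.0508 to 0.0566 without KO-labelled array 1 or 2 or WT array 1 or 4. Plagl1, an imprinted zinc finger gene, rose by 0.58 log2 (SE 0.091, adjusted p = 0.00463).

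Genes listed here as repressors of adipogenesis included 1 that rose and 4 that fell among 23 measured, also with a median of -0.08 log2. The shares over all rows were 3.81% higher and 3.59% lower. Nr2f1 and Nr2f2, the COUP-TF receptors, fell by 0.38 and 0.37 log2 (limma adjusted p = 0.00361 and 0.00598). Tcf7l2, a Wnt effector, fell by 0.62 log2 (adjusted p = 0.00869), and Id1, an inhibitor of helix-loop-helix factors, fell by 0.55 log2 (adjusted p = 0.0127). Wwtr1, the cofactor TAZ that restrains Pparg, was named after its value was seen and rose by 0.33 log2 (adjusted p = 0.0193, but 0.0613 without KO-labelled array 4 and 0.0554 without WT array 2). Of 22 partners and coregulators, 0 rose and 3 fell, with a median of -0.09 log2. The coactivator genes Ncoa1 (-0.36, SE 0.0498), Ppargc1b (-0.52, SE 0.0851) and Ppargc1a (-0.56, SE 0.102) fell, with limma adjusted p of 0.00208, 0.00563 and 0.00891. Rxra, the obligate partner of PPAR gamma, had a log2 difference of 0.00 (95% interval -0.19 to 0.19), whose sign changed with quantile normalization.

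Among 20 signals that set commitment, 0 rose and 2 fell, with a median of -0.02 log2. Fgf10, a growth factor that promotes white fat development in mice, read 7.34, 7.43, 7.69 and 7.55 log2 in KO-labelled fat, against 8.08, 8.01, 8.16 and 8.16 log2 in WT fat (log2 difference -0.60, SE 0.0779, limma adjusted p = 0.00146). Igf1, a growth factor that acts on precursor cells, fell by 0.55 log2 (SE 0.0781, adjusted p = 0.00254). The shares called were 16.7% for the other activators, 21.7% for the repressors, 13.6% for the partners and 10% for the signals, against 7.40% of all rows, on lists chosen with earlier results of these data known.

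Of 29 measured genes that PPAR gamma and C/EBP alpha switch on in fat cells, 3 rose, 0 fell and 26 did not pass, with a median of -0.04 log2 and 10.3% called, against 7.40% of all rows. Without KO-labelled array 3 or WT array 1, 1 of them fell. Fabp4, the fatty acid carrier, averaged 12.41 ± 0.11 log2 in KO-labelled fat and 12.48 ± 0.10 in WT fat (SD, n = 4 each), with a 95% interval of the difference from -0.22 to 0.09. Adipoq, the adiponectin gene, averaged 12.16 ± 0.09 in KO-labelled fat and 12.20 ± 0.05 in WT fat (interval -0.18 to 0.09). The fatty acid transporter gene Cd36 and the lipoprotein lipase gene Lpl had intervals of -0.13 to 0.10 and -0.06 to 0.17.

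Plin1, which coats the lipid droplet, read 11.54, 11.60, 11.71 and 11.59 log2 in KO-labelled fat, against 11.82, 11.75, 11.82 and 11.83 log2 in WT fat. All KO-labelled arrays lay below the WT arrays, and its log2 difference of -0.20 missed the threshold (limma adjusted p = 0.0529, and 0.0303 to 0.125 over the alternatives). The leptin gene Lep (0.75, SE 0.128), the glycerol channel gene Aqp7 (0.39, SE 0.0674) and the monoacylglycerol lipase gene Mgll (0.27, SE 0.0537) rose, with adjusted p of 0.0068, 0.00679 and 0.0128.

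**Figure D3:**
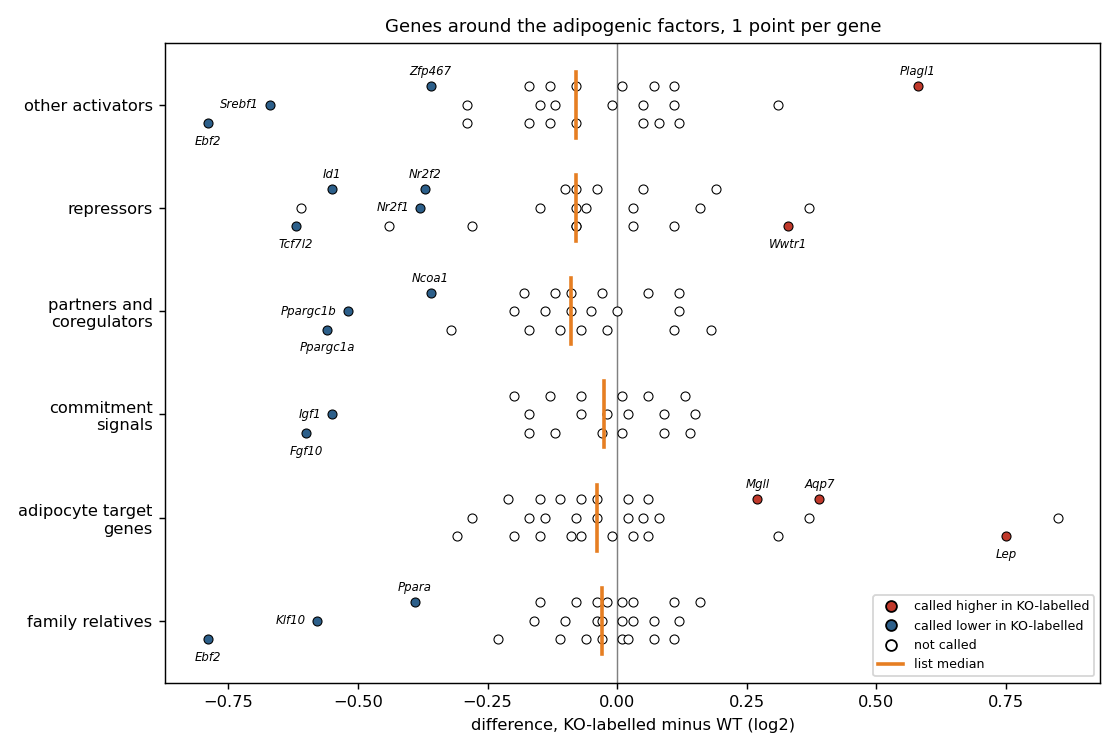
Log2 difference, KO-labelled minus WT, of each gene in 6 lists around the adipogenic factors (1 circle per gene, red where called higher, blue where called lower, orange bars at the list medians). The few called genes lie below 0 among partners (3 of 22), signals (2 of 20) and relatives (3 of 27). Among adipocyte target genes they lie above 0 (3 of 29). Of all rows, 3.59% were called lower and 3.81% higher. Every list median lies between -0.09 and -0.02.

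The tissue is a mixture of cells, and in whole tissue fewer cells of a type and less RNA per cell cannot be told apart. Of 10 adipocyte markers, 1 (Lep) rose and 0 fell, so 10% were called, against 7.40% of all rows. All 10 are also among the PPAR gamma and C/EBP alpha target genes above, so they are not a separate readout. Their summed level, on the linear scale and divided by 1000, was 44.9 to 46.7 in KO-labelled arrays and 43.9 to 47 in WT arrays. Of 13 markers of fibroblasts and progenitors, the cells that carry Zfp423 early, 7 rose and 0 fell, so 53.8% were called. The summed level was 10.3 to 11.4 in KO-labelled arrays and 8.84 to 10.6 in WT arrays. The number that rose was 3 without KO-labelled array 3 or 4 or WT array 3, and 4 without WT array 2 or 4. Col1a1, a fibrillar collagen chain, rose by 0.71 log2, the microfibril gene Mfap5 by 0.84, Anxa3 by 0.51 and Cd55 by 0.56. The 6 that did not pass were Thy1 (0.52), Fap (0.30), Pdgfra (0.14), Dpp4 (0.12), Cd34 (-0.02) and Dcn (-0.14). The Cd55 call was lost without KO-labelled array 3 or 4 or WT array 2 or 3 (limma adjusted p 0.0572 to 0.0881). The list median was 0.40 log2 beside 0.42 for Zfp423 and -0.37 for Cebpa, and the part of the cell mixture in these differences was not tested.

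Markers of the other cell types that carry some of these factors were as follows. Among 12 endothelial markers, for cells that also use Klf4 and Gata2, the tight junction gene Cldn5 (0.99) and Pecam1 (0.20) rose. Of the 12, 0 fell and 16.7% were called, against 7.40% of all rows. The summed level was 4.85 to 5.48 in KO-labelled arrays and 4.24 to 4.89 in WT arrays. Pecam1 passed without KO-labelled array 2 but not with any other array left out (limma adjusted p 0.0724 to 0.112), nor with quantile normalization (0.0712). Of 11 macrophage markers, for cells that use Cebpb and Klf4, 0 rose and Cd14 fell (-0.38), so 9.09% were called. The macrophage sums were 3.81 to 4.64 in KO-labelled arrays and 3.06 to 4.32 in WT arrays. None of 8 mast cell and 7 B cell markers was called. Their sums were 0.296 to 0.379 and 0.204 to 0.272 in KO-labelled arrays, against 0.285 to 0.345 and 0.217 to 0.276 in WT arrays.

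The summed level of 10 smooth muscle and pericyte markers was 3.27 to 4.52 in KO-labelled arrays and 2.42 to 2.9 in WT arrays. Bright genes weigh most in such a sum, and Acta2 and Rgs5 averaged 10.72 and 10.17 log2 in KO-labelled fat. The list median was 0.06 log2, with 5 of the 10 differences above 0 and 5 below. Of the 10 markers, 30% were called, against 7.40% of all rows. Acta2 (0.89) and Rgs5 (0.66) rose and Tagln (-0.29) fell, though Tagln did not pass with any WT array or KO-labelled array 3 or 4 left out (limma adjusted p 0.0681 to 0.102), nor with quantile normalization (0.051) or array medians subtracted (0.057). Of 9 mesothelial markers, for the lining of the fat pad, Msln (0.60) rose, so 11.1% were called. The mesothelial sums were 3.06 to 3.55 in KO-labelled arrays and 3.17 to 3.72 in WT arrays. None of 7 markers of the epididymal epithelium was called, and their sums were 0.0892 to 0.0903 in KO-labelled arrays and 0.0897 to 0.0949 in WT arrays. The lowest value of the table was 2.09 log2 and no detection calls were used, so dim markers cannot be told from absent ones.

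**Figure D4:**
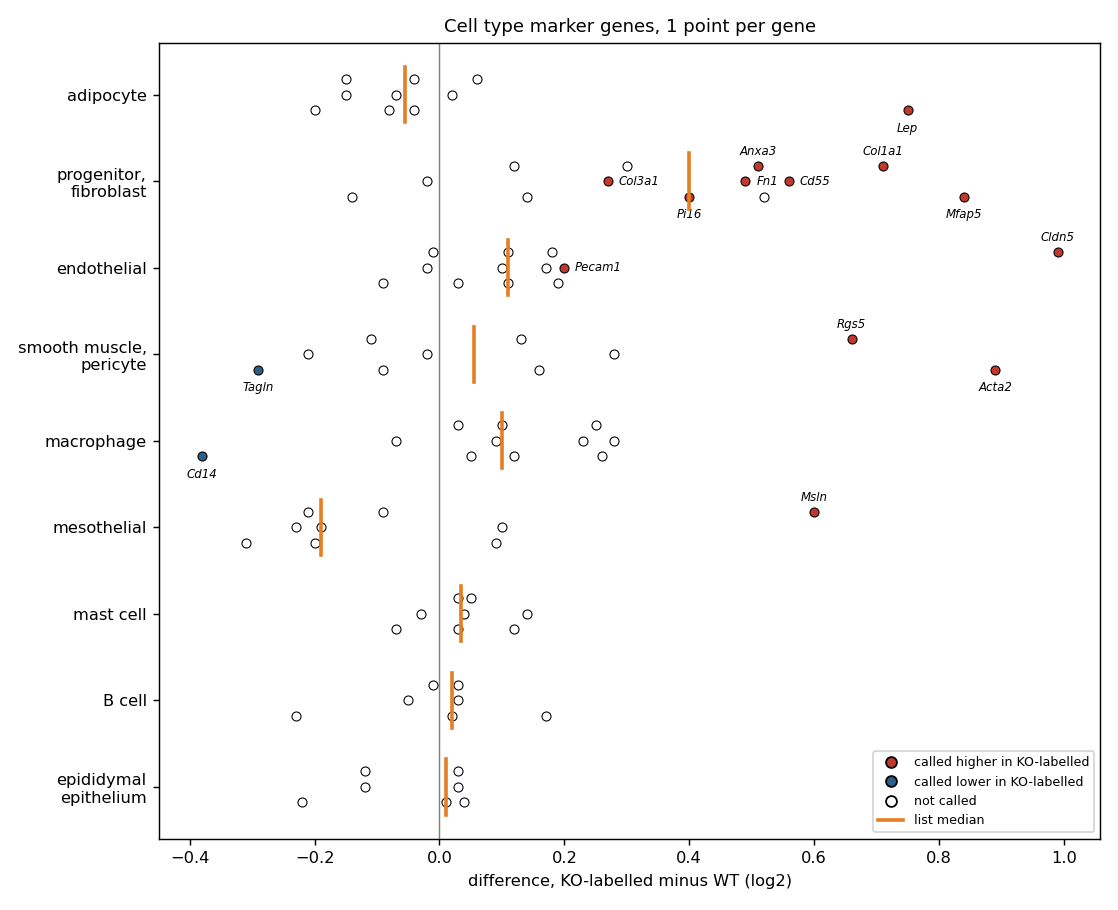
Log2 difference, KO-labelled minus WT, of each marker gene of 9 cell types (1 circle per gene, red where called higher, blue where called lower, orange bars at the list medians). The fibroblast and progenitor list has 7 of its 13 genes called higher, against 3.81% of all rows, and a median of 0.40, while the adipocyte median is -0.06.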

How the data were processed

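The deposited values are log2 expression values of a whole-transcript Affymetrix mouse array, made by the authors with affy, per the submitters' processing notes. Background correction, normalization and summarization are not given in the sources used here. The log2 scale was read from the values (2.09 to 13.4, array medians 5.9 to 5.95), and no detection calls were used, so a dim row has no bound.

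Of 23346 rows, 20748 had 1 gene symbol in the platform annotation and were tested. The difference of KO-labelled and WT arrays was estimated by limma (version 3.58.1, under R 4.3.3, with lmFit and eBayes and no term beyond the 2 groups), with two-sided p-values, Benjamini-Hochberg adjustment over all tested rows and a threshold of 0.05. The brightest row of a gene stood for it. The exact permutation test used scipy 1.17.1. Summed levels add 2 to the power of each value, divided by 1000. The fit was tested on simulated data.

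The 10 members, 6 pathway lists and 9 marker lists were chosen with earlier results of these data known. Named were all members, Nr1d1, Arntl, Rxra, Fabp4, Adipoq, Cd36, Lpl, Plin1 and, per list, up to 4 called genes with the smallest p. List genes without a row of 1 symbol were not analysed here. Alternatives were normalization, centring, dim rows, rows tested, variance model, array weights, replicate block, left-out arrays, rows per gene and threshold.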

Additional observations from a re-analysis of the deposited data

Results flagged for a closer look

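In 96 groups of 4 arrays (the named genes in each genotype), 1 array stood far from the other 3 in 4 cases, measured by its gap to the nearest other array over the whole range of the group. Chance alone gives about 1 in 20, or 4.8 groups. Among the adipogenic factors this was Cebpb, where WT array 3 was high (6.64 log2, ratio 0.905). Arntl was low in KO-labelled array 2 (ratio 0.965), Plin1 was low in WT array 2 (0.902), and the fibroblast and progenitor marker Anxa3 was low in WT array 3 (0.917).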

How the results depend on the processing

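Zfp423 and Cebpa were called in each of the 16 alternative fits run, and their log2 differences stayed at 0.40 to 0.44 and -0.40 to -0.35. The number of factors called was 2 to 4 with 1 array left out and 4 at an adjusted p under 0.10, where 12.3% of all rows were called. With 1 array left out, Pparg ranged from -0.33 to -0.21, Cebpd from 0.28 to 0.60 and Klf4 from -0.002 to 0.16 (sign changed without KO-labelled array 1), and Klf15 passed with the dimmest rows left out (-0.18). All called rows numbered 913 to 1418 with 1 array left out and 2552 at 0.10, called pathway genes 17 to 22 and 30, against 19, and called marker genes 9 (without KO-labelled array 4 or WT array 3) to 16, against 15. The replicate numbers did not pair the arrays (correlations of same-numbered deviations -0.067 to 0.134, own number highest for 1 of 4). With the replicate block, 9 marker genes were called, Zfp467, Cd55, Pecam1 and Tagln did not pass (limma adjusted p 0.0521, 0.0604, 0.0925 and 0.0867), and the calls of the 10 factors did not change. Differences near 0 changed sign for Rxra (-0.023 with quantile normalization, -0.052 to 0.063 with 1 array left out), Cd36 (0.005 with array medians subtracted, -0.034 to 0.016 with 1 array left out) and Lpl (-0.011 with quantile normalization). The causes were not tested.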
